A study of Danio rerio with 8 samples.

Results

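Regions of open chromatin listed only in embryos without p63 were collected from ATAC-seq peak lists of zebrafish. The peaks of 4 lists were merged into union regions wherever they overlapped by at least 1 bp, and a region was taken when it held a peak of both *tp63* mutant lists (8 somites and 36 hours post fertilization, hpf) and no peak of either wild type (WT) list. These mutant-only regions were thus chosen by the peak calls themselves, that is, by presence or absence in the lists. On chromosomes 1 to 25, leaving out chromosome 4 from 30 Mb on, 1175 of 133688 union regions met the rule (0.879%, 0.830 to 0.930%). Together they covered 412 kb. Intervals are Wilson 95% intervals for shares and binomial 95% intervals for medians, and both cover counting error only.

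The data came from 8 libraries of whole, deyolked embryos, 2 per genotype and stage: homozygous *tp63* mutants (tp63 -/-) at 8 somites, *tp63* mutants at 36 hpf, WT at 8 somites and WT at 36 hpf. Libraries of 8 somites were made from single embryos of heterozygous parents, genotyped afterwards, and those of 36 hpf from small pools of embryos, so the input differed with stage in both genotypes. The mutation is a small deletion in the *tp63* gene, which peak lists cannot show, and the genotypes could therefore not be checked here. Each group had 1 deposited list made from both replicates, so the variation between embryos is not known and no test between genotypes was possible. The methods give the reads of a sequencing lane shared by several libraries, so the depth of each library is unknown.

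p63 is a transcription factor of the p53 family and a main regulator of the epidermis, the fin folds and the limb or fin buds. In ATAC-seq the Tn5 transposase cuts accessible DNA, so that accessible stretches, among them many enhancers and promoters, appear as peaks. A peak alone does not show that such a stretch is in use. A region listed only without p63 is one whose peak passed the threshold of agreement between replicates in both mutant lists and in neither WT list. In whole embryos, more cells of a type and more accessibility per cell cannot be told apart. What the annotation places at these regions was not analysed here.

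Mutant-only regions were the smallest of the 6 classes of regions held by exactly 2 lists. Both WT lists alone shared 3754 regions (2.81% of the union, 2.72 to 2.90%). The crossed pairs, which share neither genotype nor stage, held 1733 regions (mutant at 8 somites with WT at 36 hpf, 1.296%) and 2588 regions (mutant at 36 hpf with WT at 8 somites, 1.94%). The mutant lists were shorter than those of WT. After every list was shortened to its 76556 strongest peaks, the count was 1710 in both mutant lists against 1957 in both WT lists, beside 1735 and 1856 in the crossed pairs. The larger part of the gap between the genotypes was absent when the lists had the same length. Shortening removed more weak peaks from the WT lists than from the mutant lists, which narrows the gap by construction. The threshold moved the count of mutant-only regions more than the overlap rule did, which gave 1298 regions at an overlap of 50% of both peaks. The irreproducible discovery rate (IDR) is low where the rank of a peak agrees between replicates. The count was 429 when all lists were limited to an IDR of at most 0.01. Only 64 of the 1175 regions passed that limit in both mutant lists. Most of the 429 were thus outside the 1175, as cut WT lists let in regions with a WT peak in the whole list. At equal list length, where the count was 1710, 1070 of the 1175 regions were kept.

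Peaks of mutant-only regions were mostly weak in both mutant lists. Their fold enrichment over background, as deposited, had a median of 6.21 at 8 somites (6.09 to 6.33, range 2.44 to 20.3), in a list with a median of 7.33. At 36 hpf the median was 5.31 (5.22 to 5.35, range 2.02 to 15.2), in a list with a median of 6.49. The fold enrichments of the 2 lists were each set by the authors' own background and were not compared with each other. When peaks were ranked by −log10 p-value within a list, with 0 for the strongest and 100 for the weakest, the median rank percentile was 78.0 at 8 somites (77.0 to 79.1) and 80.3 at 36 hpf (79.3 to 81.7). Peaks of the crossed pairs in the same mutant lists had nearly the same values, with medians of 6.20 and 77.9 at 8 somites and of 5.22 and 80.3 at 36 hpf. Mutant peaks of regions open at 8 somites alone in both genotypes ranked higher, at a median percentile of 66.8, and those of regions open at 36 hpf alone at 68.0. Regions in all 4 lists had mutant peaks with medians of 30.5 and 30.2 at the 2 stages. These values come from the lists that chose the regions and were not tested.

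**Figure D1:**
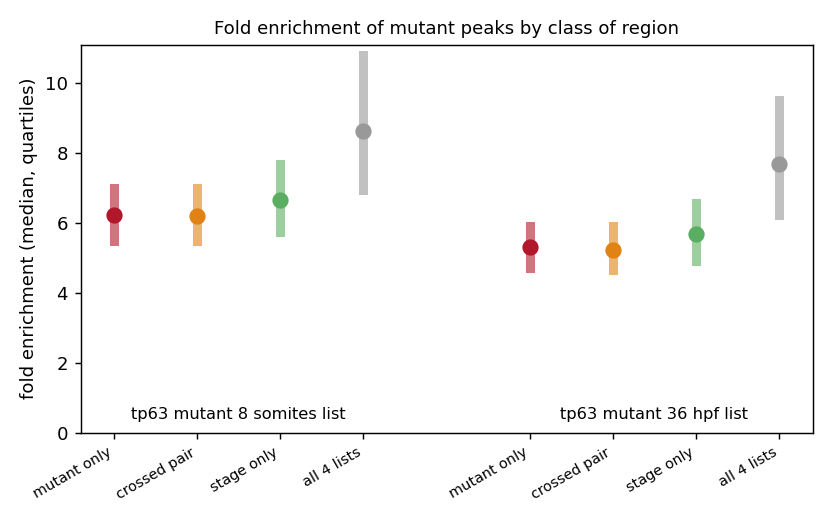
Fold enrichment (linear ratio to background, as deposited) of mutant peaks in 4 kinds of regions, for the tp63 mutant list of 8 somites (left) and of 36 hpf (right). Points are medians and bars are quartiles over peaks; mutant-only peaks (6.21 and 5.31) lay beside those of the crossed pairs (6.20 and 5.22) and under those of regions in all 4 lists (8.62 and 7.67).

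The global IDR of these peaks was also weak. Its median over the peaks of mutant-only regions was 0.0398 at 8 somites and 0.0380 at 36 hpf, in lists with an upper limit of 0.1. In 718 of the 1175 regions (61.1%, 58.3 to 63.9%) at least 1 of the peaks was above an IDR of 0.05. This was close to the crossed pairs (58.6% and 58.2%) and above the WT-only regions (52.1%, 50.5 to 53.7%), while over all regions with a peak in both mutant lists it was 14.9%. The share of regions with both peaks at an IDR of at most 0.01 was 5.45% (4.29 to 6.90%), against 9.88% of the WT-only regions (8.97 to 10.9%). It was 6.64% and 6.84% in the crossed pairs.

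A small number of regions ranked high in both mutant lists, at the end of a continuous ranking. Of the 49158 regions with a peak in both mutant lists, 13078 (26.6%) ranked in the best 25% of both lists, and 8 of those had no WT peak (0.0612%, 0.0310 to 0.121%). In WT, 3 of the 15035 regions of the same kind had no mutant peak (0.0200%, 0.00679 to 0.0587%). These intervals overlap. The mutant share was also the higher one in 5 other settings of overlap, list size, IDR and sequences (0.0596 to 0.211% against 0.0200 to 0.142%). These settings cut the same lists again, so they give no independent support. In 1 of them, equal list sizes by −log10 p-value, the counts were unchanged (8 of 13078 and 3 of 15035). That cut removes only peaks of low rank, so the 13078 and 15035 regions compared were fixed by construction. The 8 and 3 were not fixed, since a weak peak of the other genotype can be cut. With an overlap of 50% of both peaks the counts rose to 27 of 12799 in the mutant and 21 of 14800 in WT. With all lists limited to an IDR of at most 0.01 the shares were 0.0919% (12 of 13053) against 0.0933% (14 of 15005). In the better part of both mutant lists, down to the median rank, lay 26114 regions (53.1%), of which 31 were mutant-only. Between percentiles 25 and 50, the share without the other genotype was 0.176% for mutant regions (23 of 13036) and 0.749% for WT regions (112 of 14956). From percentile 75 on it reached 8.91% in the mutant and 21.7% in WT. The mutant curve therefore lay below that of WT in every band except the best 25%, in lists that differ in length.

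**Figure D2:**
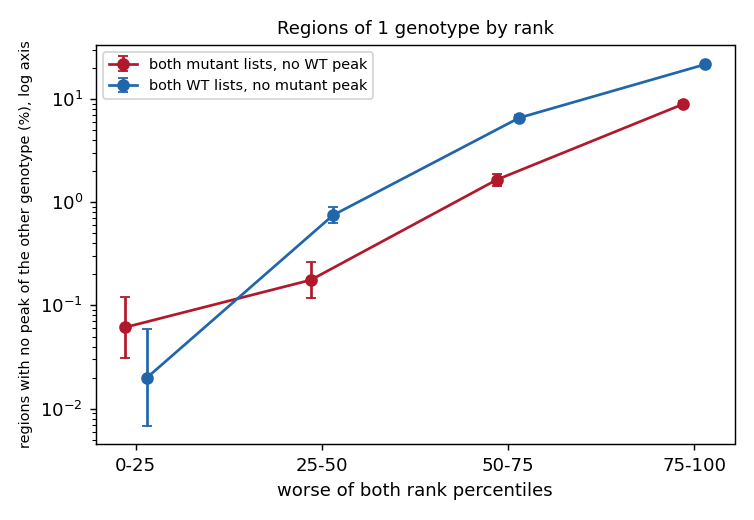
Share of regions with no peak of the other genotype (percent, log axis) among regions with a peak in both mutant lists (red) or in both WT lists (blue), by the worse of the region's rank percentiles. Error bars are Wilson 95% intervals; mutant shares run from 0.0612% to 8.91% and WT shares from 0.0200% to 21.7%, and the mutant share is the higher one in the best 25% only, where the intervals overlap.

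The 10 regions with the best rank in the weaker of their lists are described singly, with all coordinates on GRCz10. The strongest lay at chr5:52581385-52581736, with a fold enrichment of 20.3 and rank 980 at 8 somites and of 14.5 and rank 4841 at 36 hpf. Both summits lay within 20 bp of each other, and the nearest WT peak was 34.7 kb away. The region also stood apart from other mutant peaks, since the nearest region of any other class, a peak of the mutant at 8 somites alone, was 18.7 kb away. The region chr17:50395599-50396082 ranked better at 36 hpf, with a fold enrichment of 12.6 and rank 10249 at 8 somites and of 15.2 and rank 2697 at 36 hpf. Its nearest neighbour of another class was a region of all 4 lists at 15.2 kb.

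Chromosome 14 held 3 of the 10 regions. The region chr14:37727434-37727732 had a fold enrichment of 13.0 at 8 somites and of 11.8 at 36 hpf, and its summits were 3 bp apart. It had a second, weaker mutant-only region beside it, chr14:37727122-37727409, at a gap of 24 bp, with fold enrichments of 8.69 and 5.63. The nearest WT peak to the stronger of them was 6.17 kb away. The region chr14:28228329-28228749 had fold enrichments of 10.96 at 8 somites and 11.98 at 36 hpf, with a WT peak of 8 somites 6.01 kb away. The region chr14:40339503-40339804 had fold enrichments of 9.76 and 9.49, and a −log10 IDR of 1.41 at 8 somites, the lowest value among the 10. Its nearest WT peak, 2.88 kb away, was in a region of the WT list of 8 somites alone.

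Chromosome 2 held a pair. The regions chr2:45587080-45587387 and chr2:45587822-45588080 were 434 bp apart and both among the 10, with no WT peak closer than 7.83 kb to either of them. The first had fold enrichments of 15.0 at 8 somites and 12.9 at 36 hpf, and the second had 10.5 and 11.6. Their summits differed by 2 and 4 bp between the stages. The WT peak nearest to them at 8 somites was 7.83 kb away, and at 36 hpf 26883 bp away, as measured from the second region. These neighbours are not independent of each other.

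The other 3 regions lay on chromosomes 6, 8 and 13. The region chr6:48980808-48981276 had fold enrichments of 10.1 (rank 5027) and 8.22 (rank 11706), and it was the closest of the 10 to a WT peak, at 2.07 kb. A peak of the mutant at 8 somites alone lay 271 bp from it. The region chr8:41248604-41248904 had fold enrichments of 12.7 and 11.4, at ranks 13354 and 13642, and its nearest WT peak was 15.1 kb away. The region chr13:45586154-45586580 was the most uneven of the 10 in rank, with a fold enrichment of 16.01 and rank 4163 at 8 somites and of 9.83 and rank 20980 at 36 hpf. Its nearest WT peak lay 28.7 kb away. For 4 of the 10 regions (chr5, chr6, chr13 and the stronger one of the close pair on chromosome 14), the nearest region of another class was a peak of 1 mutant list alone. Over all 1175 mutant-only regions this was so for 79 with the list of 8 somites (6.72%) and 67 with that of 36 hpf (5.70%). Such peaks made up 6.53% and 5.63% of the other regions. The 10 were picked by rank, and the difference was not tested.

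**Figure D3:**
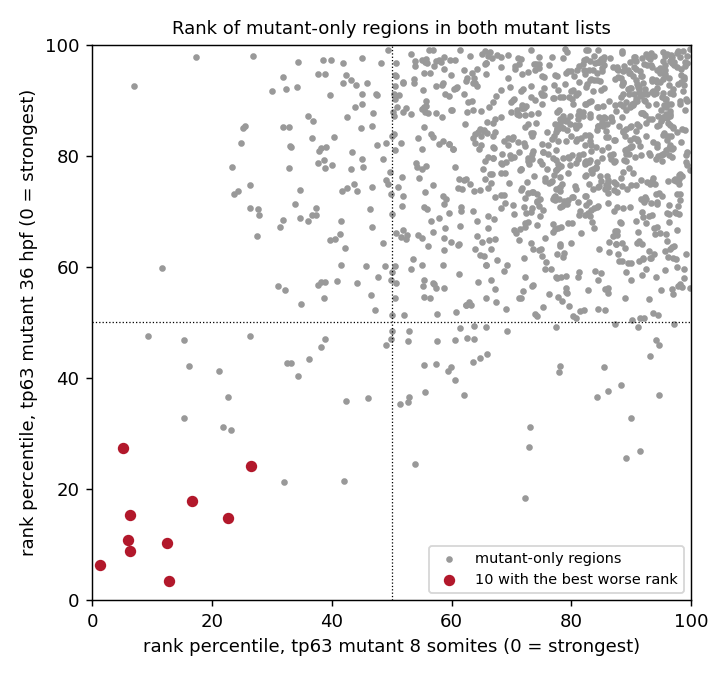
Rank percentile of each mutant-only region in the tp63 mutant list of 8 somites (x axis) and of 36 hpf (y axis), where 0 is the strongest peak of a list. Grey points are regions and red points are the 10 with the best rank in the weaker of their lists; dotted lines mark the median rank, and 31 regions lie under both lines.

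In 1162 regions each mutant list had exactly 1 peak, and in 13 at least 1 list had more. The summits of the strongest peak of each stage differed by a median of 23 bp (quartiles 7 and 53 bp), and in 1066 regions (90.7%) they were at most 100 bp apart. Overlap of the peaks was part of the rule, which limits how far apart summits can be. The rank percentiles had a Spearman's rho of 0.18 over the 1175 regions, against 0.67 over the 41041 regions in all 4 lists, and of 0.17 between the WT lists over the WT-only regions. For fold enrichment, rho between the mutant lists was higher, at 0.41 over the mutant-only regions against 0.71 over those in all 4 lists. These correlations describe regions of the same lists, which share libraries and thresholds. The ranks of mutant-only regions also covered a narrower range (quartiles 62.0 and 89.5 at 8 somites, against 14.1 and 52.7 in all 4 lists). The part of this in the lower rho was not tested. In 288 regions (24.5%) the percentiles differed by more than 25 points. The rank was better at 8 somites in 633 regions (53.9%, 51.0 to 56.7%) and at 36 hpf in 542. In WT-only regions the share with the better rank at 8 somites was 54.7%. Merged regions had a median width of 321 bp (quartiles 253 and 418 bp, range 157 to 1104 bp). Their peaks had median widths of 267.5 bp at 8 somites and 280 bp at 36 hpf. Peaks of the crossed pairs in the same mutant lists had medians of 272 and 293 bp, and those of regions in all 4 lists were wider (344 and 383 bp).

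WT peaks were often near. The median distance from a mutant-only region to the nearest WT peak of either stage was 3447 bp (3105 to 3803 bp). A WT peak lay within 100 bp of 61 regions (5.19%, 4.06 to 6.61%), within 1 kb of 242 (20.6%, 18.4 to 23.0%) and within 5 kb of 729 (62.0%, 59.2 to 64.8%). WT-only regions were farther from the nearest mutant peak, at a median of 4313 bp (4093 to 4503 bp), with 2.58% (2.12 to 3.14%) within 100 bp and 15.0% (13.9 to 16.2%) within 1 kb. There were fewer mutant than WT peaks to be near to, and the part of this in the difference was not tested. Nearness was common to other classes too. A region of any other class lay within 1 kb of 24.1% of mutant-only regions, 19.1% of WT-only regions and 20.2% and 22.3% of the crossed pairs. For regions open at 8 somites or at 36 hpf alone in both genotypes it was 17.1% and 23.4%. The 61 regions with a WT peak within 100 bp were narrow, with a median width of 258 bp against 324 bp in the others. The rule leaves out regions that touch a WT peak, which favours narrow ones beside it. The part of this in the widths was not tested. At the far end, 6 regions had no WT peak within 50 kb, and the largest distance was 96.4 kb. The 31 regions above the median rank in both lists had a median distance of 6170 bp, against 3384 bp in the other 1144, while the shares with a WT peak within 1 kb were 19.4% (6 regions) and 20.6% (236 regions).

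**Figure D4:**
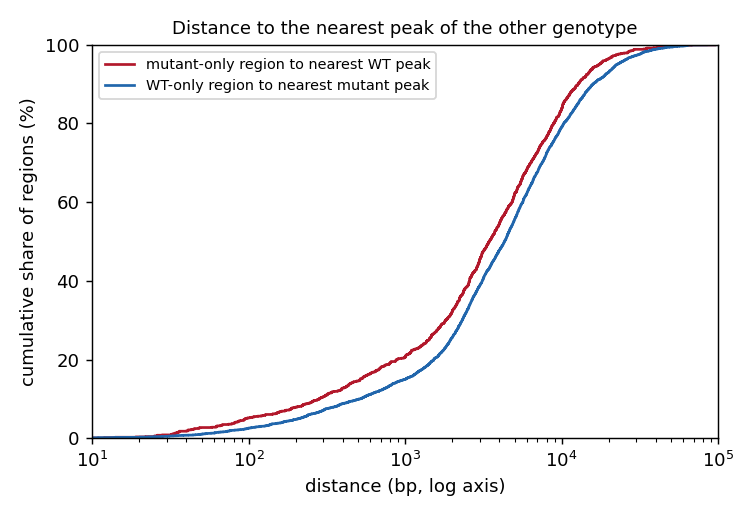
Cumulative share of regions (percent) by distance to the nearest peak of the other genotype (bp, log axis), for mutant-only regions to WT peaks (red) and WT-only regions to mutant peaks (blue). At 1 kb the red curve has reached 20.6% and the blue one 15.0%, and their medians are 3447 and 4313 bp.

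Some regions met the rule by a few bases. The region chr3:53332989-53333333 had fold enrichments of 6.997 at 8 somites and 6.77 at 36 hpf, and a WT peak of 36 hpf lay 2 bp from it, in a region of all 4 lists. A gap of 12 bp separated chr16:6304789-6304988 (fold enrichments 3.32 and 3.71) from a peak of the WT list of 8 somites, and one of 14 bp separated chr9:21893264-21893618 (6.66 and 6.29) from a peak of the WT list of 36 hpf. On the other side of the rule, chr17:12343446-12343830 was left out by an overlap of 88 bp between its mutant peak of 8 somites and a WT peak of the same stage. That WT peak was almost the weakest of its list, at percentile 99.8 (fold enrichment 2.99). The mutant peaks lay at percentiles 65.8 at 8 somites and 74.7 at 36 hpf (fold enrichments 7.33 and 5.90). The region chr1:32082549-32083015 was left out by an overlap of 96 bp with a WT peak of 36 hpf at percentile 86.5 (fold enrichment 4.66). Its mutant peaks lay at percentiles 81.5 at 8 somites and 87.9 at 36 hpf (6.10 and 5.19). The region chr10:16840894-16841027 followed with an overlap of 122 bp. This was nearly all of its WT peak (16840905 to 16841027), so the region was not left out narrowly. Its mutant peaks lay at percentiles 49.1 at 8 somites and 65.2 at 36 hpf (fold enrichments 3.91 and 3.09). The WT peak of 36 hpf lay at percentile 38.9 (3.50). In no left-out region with peaks in both mutant lists was the largest overlap of a mutant with a WT peak under 88 bp. A mutant peak that touched a neighbouring region by fewer bases does not show in this measure, since that region can hold a larger overlap of its own.

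Mutant-only regions were found on all 25 chromosomes, at similar shares of the union. The share ran from 0.749% on chromosomes 20 and 21 to 1.21% on chromosome 3 (76 of 6261 regions, 0.971 to 1.52%). The interval of chromosome 3 was the only one to lie wholly above 0.879%, the share over all chromosomes. With 25 chromosomes, an interval off the common value can arise from counting error alone. The share of WT-only regions on chromosome 3 was 2.89%, near the 2.81% over all chromosomes. The crossed pair of the mutant at 8 somites with WT at 36 hpf was also at its highest there, at 1.88%.

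**Figure D5:**
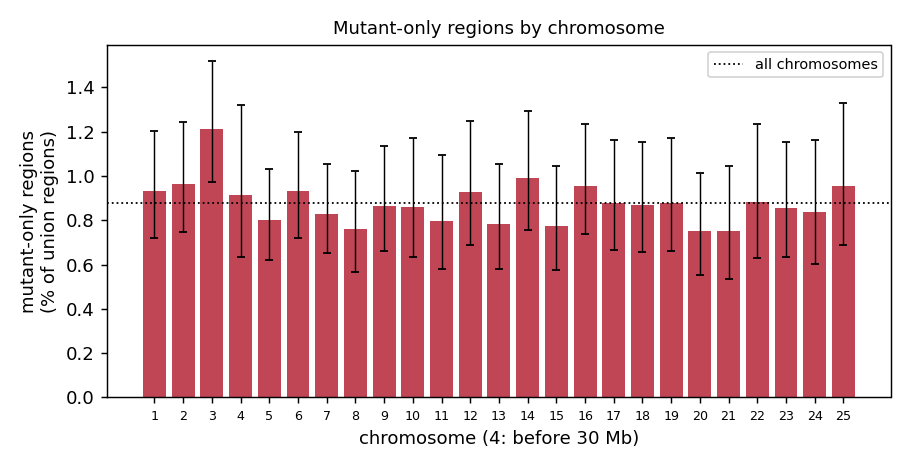
Mutant-only regions as a percentage of all union regions on each chromosome, with Wilson 95% intervals; the dotted line is the share over all chromosomes (0.879%). Chromosome 3 (1.21%) is the highest, and chromosomes 20 and 21 (0.749%) are the lowest.

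Part of the excess on chromosome 3 came from a single stretch, the densest cluster of mutant-only regions within 1 Mb. From chr3:13245674 to 14223132, 8 of 96 union regions were mutant-only (8.33%, 4.28 to 15.6%), beside 2 WT-only regions, 1 region of the mutant at 8 somites with WT at 36 hpf and 0 of the mutant at 36 hpf with WT at 8 somites. As the stretch was picked for its number of such regions, its share is a description. The strongest region in it, chr3:14015460-14015877, had fold enrichments of 10.7 at 8 somites and 8.11 at 36 hpf. The next, chr3:14105745-14106414, was 670 bp wide, had fold enrichments of 7.50 and 7.24, and lay 23 bp from a weaker one, chr3:14105455-14105721. The region chr3:13450125-13450429 differed between stages, with a fold enrichment of 10.4 at percentile 7.03 at 8 somites and of 4.14 at percentile 92.6 at 36 hpf. The other 4 had fold enrichments of 4.95 to 8.15 at 8 somites and of 5.10 to 7.08 at 36 hpf. Between 13 and 15 Mb, 13 of 237 union regions were mutant-only (5.49%), beside 9 WT-only regions. The same 237 included 30 regions of the mutant list of 8 somites alone and 19 of the WT list of 8 somites alone. Over all regions that were not mutant-only, these kinds made up 6.53% and 13.6%. Without these 2 Mb, the share on chromosome 3 was 1.05% (63 of 6024), against 0.862% on the other chromosomes. As the stretch was picked for its density, this lower share follows by construction.

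Most mutant-only regions were scattered. Of 1305 windows of 1 Mb over all chromosomes, the stretch on chromosome 3 included, 543 held no mutant-only region, 458 held 1, 221 held 2, and 17 held at least 4. In 5 cases 2 mutant-only regions lay within 1 kb of each other. Besides those named above on chromosomes 2, 3 and 14, these were a pair at chr3:13031593-13031906 and chr3:13032342-13032532, with a gap of 435 bp, and a pair at chr11:43623310-43623630 and chr11:43624195-43624882, with a gap of 564 bp. The pair on chromosome 3 also lay between 13 and 15 Mb. In both of them the first region was the stronger one at both stages (fold enrichments of 6.74 and 5.92 against 5.14 and 4.35 on chromosome 3, and of 8.04 and 7.25 against 5.14 and 5.04 on chromosome 11).

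The surroundings of mutant-only regions resembled those of other regions. Within 50 kb on either side lay 11.7 other union regions on average. Of these neighbours 0.917% were mutant-only themselves, against 0.869% around all union regions. The share of WT-only neighbours was 2.67%, against 2.70% around all regions, and that of regions in all 4 lists was 32.1% against 32.4%. The nearest region of another class was in all 4 lists for 339 mutant-only regions (28.9%, 26.3 to 31.5%), and regions in all 4 lists made up 31.0% of the other regions. It was a peak of 1 list alone for 422 (35.9%), against 34.5% of the other regions. The presence of mutant peaks of a single stage among the nearest neighbours, 79 of 8 somites (6.72%) and 67 of 36 hpf (5.70%), was likewise close to their shares of all other regions (6.53% and 5.63%).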

How the data were processed

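ATAC-seq was done on 8 libraries (4 groups of 2). The submitters' processing notes name Bowtie2, SAMtools and the GRCz10 (danRer10) assembly; the authors shifted read starts to the Tn5 cut sites and kept peaks by IDR across both replicates, so a list depends on the weaker replicate. The deposited lists hold a fold enrichment (linear ratio) for every peak, the −log10 of a p-value and q-value, a score (rescaled global IDR) and the −log10 IDR, with every peak at an IDR of at most 0.1. The IDR used here is the global one: the deposited score followed from that column for every peak of all lists, within 5 score units. The deposited q-value was not used, and the score only for this check. Study methods name more than 1 sequencing instrument without assigning libraries, so instrument and group cannot be told apart.

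Peaks were ranked within a list by −log10 p-value, ties by fold enrichment. Union regions and distances were computed in Python 3.11.15 (numpy 2.4.6, pandas 2.3.3, scipy 1.17.1, matplotlib 3.10.9), tested on simulated lists and checked against bedtools 2.31.1 (137841 regions in both, and identical distances for all 1175 mutant-only regions). Bookended peaks were kept apart. Named regions were the 10 with the best rank in the weaker of both mutant lists, the 3 closest to a WT peak, and the densest 1 Mb. Also named were the 3 left out whose largest overlap of a mutant with a WT peak was smallest. The other close pairs were named after their values were seen. The regions, rules and alternatives were chosen with earlier results of these data known. Gene positions, motifs and sequences were planned but not analysed here, as no genome of the files' build was used.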

Additional observations from a re-analysis of the deposited data

How the results depend on the processing

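No paired analysis was possible because each list pools both replicates, and for the same reason no replicate could be left out. Alternatives for sequence windows and gene starts were not run, as no genome was used. Of 39 alternative values, 19 stayed within the interval of the reported value (or within 1.5 times, for counts). For the rest, the cause was not tested except where it is named.

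With an overlap of 50% of both peaks, 32.0% of mutant-only regions had a WT peak within 1 kb, higher by construction, since WT peaks of smaller overlap then count as near. That overlap gave 76 regions above the median rank in both mutant lists, and an IDR of at most 0.01 gave 121, against 31. Without regions within 1 kb of a WT peak, the median fold enrichment at 36 hpf was 5.36. Equal list sizes by −log10 p-value gave 17.4% within 1 kb. By fold enrichment they gave 2123 mutant-only regions (2264 WT-only), medians of 5.97 at 8 somites and 5.02 at 36 hpf, and 23.5% within 1 kb. An IDR of at most 0.05 gave medians of 6.66 and 5.74. An IDR of at most 0.01 gave 429 regions, medians of 7.64 and 6.59, and 18.2% within 1 kb. Fewer weak peaks raise the medians by construction. Chosen after seeing the data, mutant peaks at an IDR of at most 0.01 against whole WT lists gave 64 regions, medians of 8.26 and 6.72, and 23.4% within 1 kb. Mutant peaks above the median rank against whole WT lists gave 31 regions, with medians of 10.4 and 8.22.

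The other counts of regions lay between 801 and 1710. Of the 1175 regions, 48 were found under all 7 alternatives of overlap, distance, list size, IDR and sequences, leaving aside those chosen after seeing the data. They included 9 of the 10 named as strongest, all but chr14:40339503-40339804. Several of the alternatives leave out weak peaks or regions near a WT peak, so strong regions are kept more often by construction. The depth of each library is unknown, and a region missing from a WT list may hold signal just under its threshold.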

Other observations

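Outside the chromosomes counted above, 40 more regions had a peak in both mutant lists and in neither WT list, 12 of them on chromosome 4 from 30 Mb on and 28 on sequences not placed on a chromosome. They made up 0.963% (0.708 to 1.31%) of the 4153 union regions there. Their median fold enrichment was 5.998 at 8 somites (range 4.58 to 11.5) and 5.72 at 36 hpf (range 3.75 to 9.57).

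The 48 mutant-only regions found under all 7 alternatives of overlap, distance, list size, IDR and sequences lay on 20 chromosomes, and 21 of them ranked above the median in both mutant lists. Their fold enrichment had a median of 8.67 at 8 somites (range 5.56 to 20.3) and of 7.005 at 36 hpf (range 4.06 to 15.2), and their median distance to the nearest WT peak was 6.67 kb. Several of the alternatives leave out weak peaks or regions near a WT peak. Higher ranks, fold enrichments and distances of these regions therefore follow by construction.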
